A study of Gallus gallus with 7 samples.

Results

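The segments described here are the 584 of 53008 in the deposited segment table whose mean CpG methylation was at least 15 percentage points higher in conditioned than in non-conditioned microglia, on any chromosome or scaffold. They were selected on the difference between the authors' 2 deposited group means, 1.10% of all segments passed, and the deposited p-, q- and difference columns played no part. Because the group difference chose them, their difference and everything measured on the same contrast is a description and carries no test. The conditioned group holds 3 libraries, numbered 1-2, 3 and 4, from chicks kept at 39 °C for 24 hours on day 3 after hatch. The non-conditioned group holds 4 libraries, numbered 1 to 4, from chicks without that heat exposure. All 7 were made by reduced representation bisulfite sequencing (RRBS), which reads methylation in CpG-rich fragments, from microglia sorted by flow cytometry out of the anterior hypothalamus, the brain region that holds the thermoregulatory centre. All birds were sampled on day 10, before any immune challenge, and per the labels cells of 10 to 12 chicks were pooled, so no value belongs to 1 bird. How conditioned library 1-2 came to carry a double number is not in the labels, and strain, sex and whether the pools were separate are not stated. Spread between libraries may therefore be partly technical. Marker genes of microglia could not be examined, because no gene annotation of the files' build, galGal5, was used.

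In vertebrates most CpG cytosines outside CpG-dense regions carry a methyl group, which the maintenance enzyme DNMT1 copies at each division and the de novo enzymes DNMT3A and DNMT3B can add. CpG islands, where many promoters lie, are mostly free of it, and methylation gained there is generally associated with a silent gene. Partly methylated stretches are common at island borders and at regulatory elements, and in a sorted pool a middle value can come from a mixture of fully and barely methylated DNA molecules.

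Values per library cover chromosomes 1 and 10 to 13 in full, and chromosome 14 as far as base 4886681. Within that range lie 11570 segments, 124 of the 584 among them. They come as percentages with no read depth behind them, so no value below carries a counting interval. Conditioned library 1-2 differed from conditioned libraries 3 and 4 before any segment was selected. Over the 513180 positions measured in all 7 libraries it had the highest mean, 19.9%, while conditioned libraries 3 and 4 had 15.97% and 17.2% and the non-conditioned libraries had 18.2% to 19.0%. It was also the highest of the 3 conditioned libraries in 71.2% of all segments with library values. Over these segments its mean was 13.2%, close to the 12.3% to 13.1% of the non-conditioned libraries. Conditioned libraries 3 and 4 lay below that range, with 9.34% and 10.3%. The main results on library values are therefore given with and without it.

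Most of the gaining segments began partly methylated. A non-conditioned mean of 10% to 50% was found in 391 of them (67.0%), a mean under 10% in 122 (20.9%) and a mean over 50% in 71 (12.2%). Among all 53008 segments the same classes held 24.8%, 66.7% and 8.53%. Put per class, 2.98% of segments that began between 10% and 50% gained 15 points, against 0.345% of those that began under 10% and 1.57% of those that began over 50%. The starting level is itself part of the selection, and a segment that starts high has little room to gain.

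Median gains were 18.2 points from a low start, 18.5 points from a middle start and 17.7 points from a high start. The threshold of 15 points partly builds in this likeness. Over all gaining segments the middle 50% of gains ran only from 16.5 to 21.7 points, so nothing is read from the close medians. The largest gains were 44.2 points from a low start, 57.1 points from a middle start and 29.6 points from a high start. Low starters reached a median of 23.7% in conditioned microglia, against 4.54% in non-conditioned microglia, and none passed 50%. Of these, 7 were listed at 0 in the deposited non-conditioned mean and 64 were under 5%. Middle starters reached 48.3% in conditioned microglia, against 28.2% in non-conditioned microglia, and 182 of the 391 ended above 50%. High starters reached 74.8%, against 56.2%, and 17 of the 71 ended at 80% or more.

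**Figure D1:**
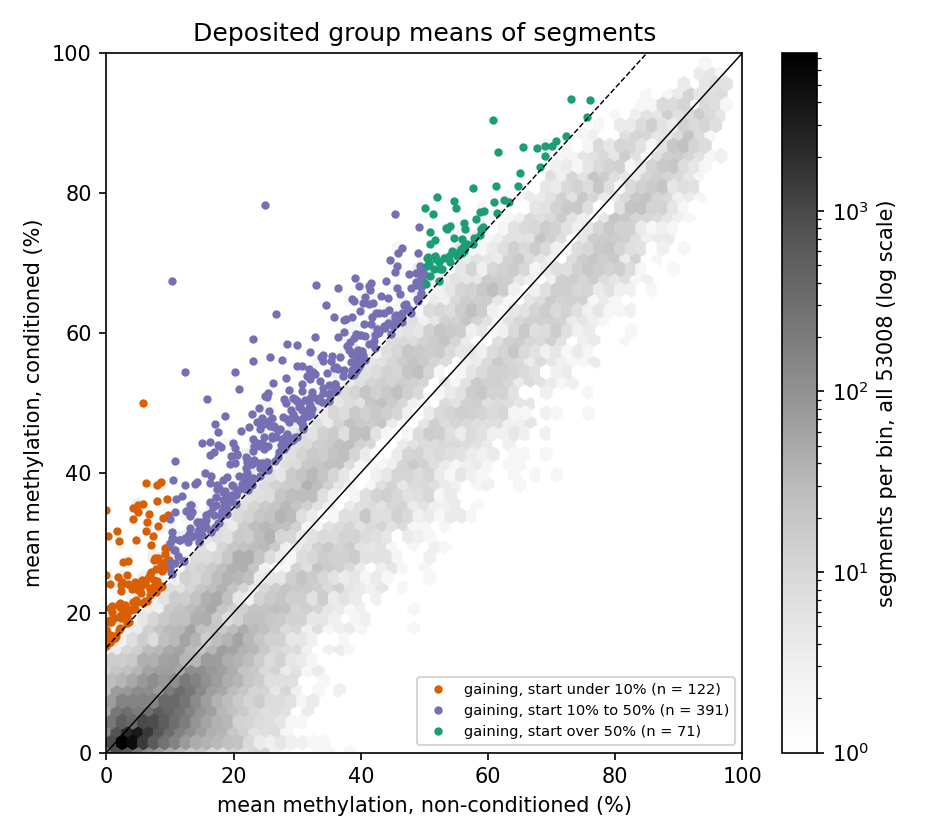
Deposited mean methylation of each segment in conditioned (y axis, %) against non-conditioned microglia (x axis, %). Grey hexagons count all 53008 segments on a log scale, coloured points are the 584 gaining segments by starting level, the solid line marks equal means and the dashed line a gain of 15 points. Middle starters (391) make up most of the points, and the coloured points thin out quickly above the dashed line.

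Gains far past the threshold were few. Of the 584, 205 gained 20 points or more, 75 gained 25 points, 21 gained 30 points and 2 gained 50 points. Losses of the same size were more numerous at most steps: 1023 segments lost 15 points, 382 lost 20 points and 51 lost 30 points, while 1 lost 50 points. Just inside the threshold lay chr28:863393-863649 with a gain of 15.002 points, chr5:13770659-13770719 with 15.003 points and chr1:124018258-124018291 with 15.04 points. Just outside it lay chr23:3721851-3721918 with 14.98 points, chr13:2430995-2431032 with 14.96 points and chr2:32715323-32715358 with 14.96 points.

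The steepest gain, 57.1 points, was at chr25:1349529-1349596, with deposited means of 67.4% in conditioned and 10.4% in non-conditioned microglia over 10 positions. The 2 next steepest lay on unplaced scaffolds, with 78.3% in conditioned against 25% in non-conditioned microglia and 50% against 5.83%. On chromosome 14, beyond the part with library values, chr14:12542962-12543023 had 54.4% in conditioned and 12.3% in non-conditioned microglia. The segment chr15:11252486-11252538 was listed at 0 in non-conditioned microglia and had 34.7% in conditioned microglia. Its deposited Mann-Whitney p-value was 0.00903 and its deposited Kolmogorov-Smirnov p-value 1. The remaining 5 of the 10 steepest gained 33.8 to 36.0 points and lay on chromosomes 3, 12, 17, 25 and 26. Each of these 10 segments held 10 to 14 CpG positions. A position is a cytosine of a single strand, so a CpG read on both strands counts more than once.

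In the authors' deposited table, 11 of the 584 had a q-value under 0.05 in the comparison of the groups, and 557 had a q-value of exactly 1. Of all 53008 segments, 0.0623% were higher with such a q-value, and nothing is read from the contrast between these figures because the same difference selected the segments. Low starters made up 7 of the 11 and middle starters the other 4. The lowest q-value among the 584 in the authors' deposited table, 8.41e-06, belonged to chr26:615347-615423, with 38.7% in conditioned and 8.55% in non-conditioned microglia over 19 positions. At chr23:5267952-5268018 the authors' deposited table gives 51.9% in conditioned and 20.8% in non-conditioned microglia (q = 0.0386). Among the rest, the authors' deposited table gives 20.7% in conditioned against 0.50% in non-conditioned microglia at chr26:1273451-1273663 (q = 0.000485). It gives 24.1% against 0.625% at chr28:3645968-3646026 (q = 0.00251). Further low starters were chr3:25050398-25050473, with 21% against 2.86%, and chr7:16405949-16406020, with 25.4% against 3.18%, in the authors' deposited table. The highest start of the 11 was at chr4:11437013-11437067, with 59.5% in conditioned and 40.7% in non-conditioned microglia (q = 0.00548). One of the 11 lay on an unplaced scaffold, with deposited means of 44.4% in conditioned and 16.3% in non-conditioned microglia.

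Gaining segments were stretched out and carried few CpG positions. Their median length was 73.5 bp (middle 50%, 50 to 128 bp; longest 498 bp), against 50 bp over all segments. Segments that lost 15 points had a median of 72 bp, so the greater length was shared by both directions. The table lists no segment with fewer than 10 positions, and 389 of the 584 (66.6%) held exactly 10, against 49.3% of all segments. Only 10 of them (1.71%) held 20 positions or more, against 7.14% of all segments. The median spacing was 6.60 bp per position in gaining, 6.40 bp in losing and 3.91 bp in all segments. It depends on how many CpGs were read on both strands, so it is not CpG density. Middle starters, compared with all segments of that class, still had a median length of 76 bp against 64 bp. Losing segments also sat at the minimum of 10 positions more often than the table as a whole, 607 of 1023 (59.3%).

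Chromosome 28, one of the gene-dense microchromosomes of birds, had the largest share of gaining segments among the 27 chromosomes with at least 500 segments. On it 40 of 1281 segments gained 15 points (3.12%), and 32 lost as much (2.5%). Chromosome 23 followed with 25 of 1045 (2.39%), then chromosome 18 with 23 of 1272 (1.81%), chromosome 11 with 25 of 1409 (1.77%) and chromosome 26 with 16 of 931 (1.72%). The large chromosomes had low shares: 37 of 5234 (0.707%) on chromosome 1, 30 of 4316 (0.695%) on chromosome 2 and 22 of 3268 (0.673%) on chromosome 4. The smallest share was 12 of 1851 (0.648%) on chromosome 8, next to 15 of 2279 (0.658%) on the Z sex chromosome. Starting level differs between chromosomes, with 36.3% of segments on chromosome 28 and 20.6% on chromosome 1 beginning between 10% and 50%. Within that class alone, 30 of 465 segments gained on chromosome 28 (6.45%), 26 of 1077 on chromosome 1 (2.41%) and 4 of 468 on chromosome Z (0.855%).

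Gaining outnumbered losing segments on 3 of the 34 assembled chromosomes of the table, which were chromosomes 28, 30 and 32. Chromosomes 30 and 32 had only 20 and 62 segments, of which 2 and 1 gained. No segment gained on chromosome 16, on linkage group LGE64 or on the mitochondrial chromosome, which had 37, 8 and 5 segments. Unplaced scaffolds held 60 of the 584 in 2571 segments (2.33%), against 524 in 50437 (1.04%) on assembled chromosomes. These 60 were spread over 51 scaffolds, with at most 3 on any scaffold, and 60 scaffold segments lost 15 points.

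**Figure D2:**
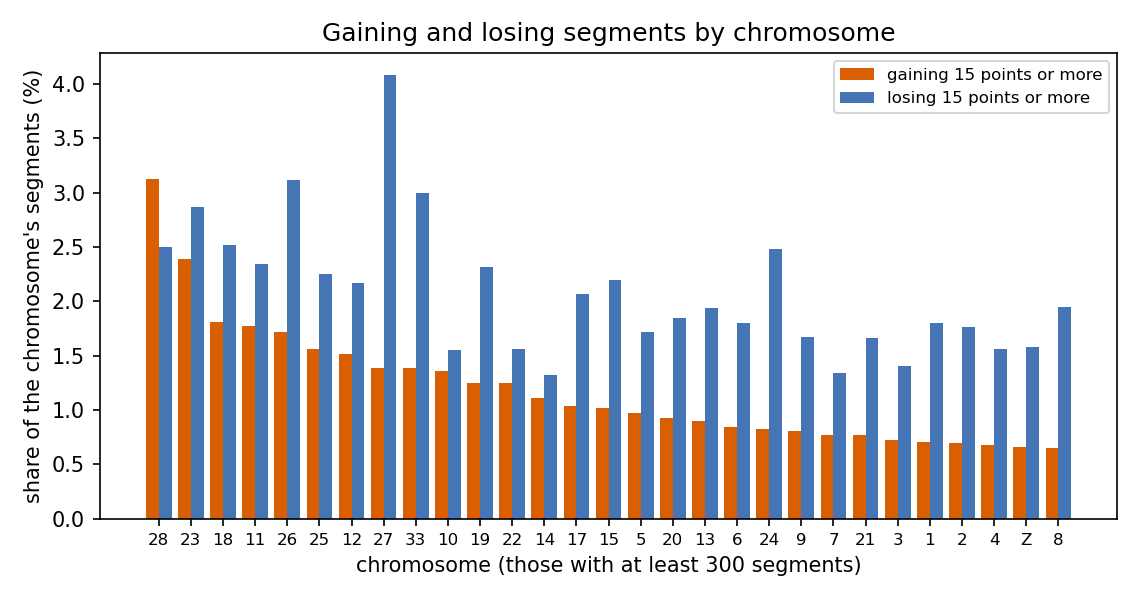
Share of each chromosome's segments (y axis, %) that gained (orange) or lost (blue) 15 points or more in conditioned microglia, for assembled chromosomes with at least 300 segments, ordered by the gaining share. Chromosome 28 has the highest gaining share, 3.12%, and is the only one drawn where the gaining bar is taller than the losing bar.

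About 1 in 10 gaining segments had another within 1 kb. Of all 53008 segments, 46192 (87.1%) had another segment of any kind within 1 kb, so nearness in itself was common. With gaps of up to 1 kb counted as near, 59 of the 584 (10.1%) fell into 26 groups of 2 to 4, against 58 of 1023 losing segments (5.67%). The groups spanned a median of 555 bp, from 144 to 1488 bp, and in 18 of the 26 all segments began in the same level class. Groups of 3 or more numbered 6 among gaining and 2 among losing segments. Besides those on chromosome 11 described further on, they lay at chr4:11436502-11437067, chr5:24404857-24405148, chr6:22109747-22110268 and chr28:4399395-4400458. At chr5:24404857-24405148 the 3 segments had 25.5% to 47.0% in conditioned and 10.3% to 19.9% in non-conditioned microglia.

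Over wider gaps the shares of gaining and losing segments came closer together. With gaps of up to 10 kb, 134 of the 584 (22.9%) and 204 of the 1023 losing segments (19.9%) had another of their kind near. With gaps of up to 100 kb, 274 of the 584 (46.9%) and 504 of the 1023 losing segments (49.3%) did. The largest run was 15 gaining segments between 847930 and 1422206 on chromosome 28, with conditioned means of 32.7% to 82.9% and non-conditioned means of 17.7% to 65.1%. A second run of 10 lay between 2795728 and 3142624 on the same chromosome. Together they held 25 of the chromosome's 40 gaining segments. How many of all its segments lie inside these runs was not computed, and none of them has library values. At this gap 98.7% of all 53008 segments had another segment near, and the largest group held 923. A run of 7 lay between 9766554 and 9908410 on chromosome 18.

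Nearest neighbours past 15 points went both ways. Another segment of the table lay within 1 kb of 424 gaining segments, and 16 of these nearest neighbours were themselves gaining (3.77%), against 0.844% over the neighbours of all segments. Another 14 had lost 15 points (3.30%), against 1.48% over the neighbours of all segments. Of the 408 neighbours that did not gain 15 points, 231 were higher in conditioned microglia (56.6%), and the median of their differences was 2.35 points. Over all segments, 20.5% of nearest neighbours were higher, and their median difference was -1.81 points. Losing segments had neighbours of which 25.6% were higher, with a median difference of -1.93 points. Where library values exist, 54 of 94 such neighbours were higher (57.4%) with all 3 conditioned libraries and 32 (34.0%) without library 1-2, with median differences of 2.22 and -1.60 points. Over the neighbours of all segments with library values, 19.3% were higher with library 1-2 and 13.5% without it. The neighbours were read from the same libraries and contrast, and gaining segments differ from the table in starting level, so these shares are descriptions.

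The 3 conditioned libraries lay at different heights above the non-conditioned ones. Over the 124 segments the median methylation of conditioned library 1-2 was 60%, against 34.7% in conditioned library 3 and 38.8% in conditioned library 4. The non-conditioned libraries 1 to 4 had medians of 22.6%, 24.5%, 26.9% and 21.8%. Conditioned library 1-2 was the highest of the conditioned libraries in 95 of the 124 (76.6%), conditioned library 3 in 13 (10.5%) and conditioned library 4 in 16 (12.9%). These shares lie near those over all 11570 segments, which were 71.2%, 11.7% and 17.0%. Conditioned library 1-2 lay a median of 33.6 points above the non-conditioned mean, conditioned library 4 lay 14.1 points above it and conditioned library 3 lay 7.97 points above it. Over all segments with library values the corresponding medians were -0.670, -2.27 and -2.70 points. The conditioned libraries thus kept the order they had over all positions, with library 1-2 highest and library 3 lowest, but lay much farther apart. Their median standard deviation was 16.01 points in the 124 segments, against 1.74 points over all segments with library values. The rise was therefore not of equal size in the 3 libraries, and it was largest in library 1-2.

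**Figure D3:**
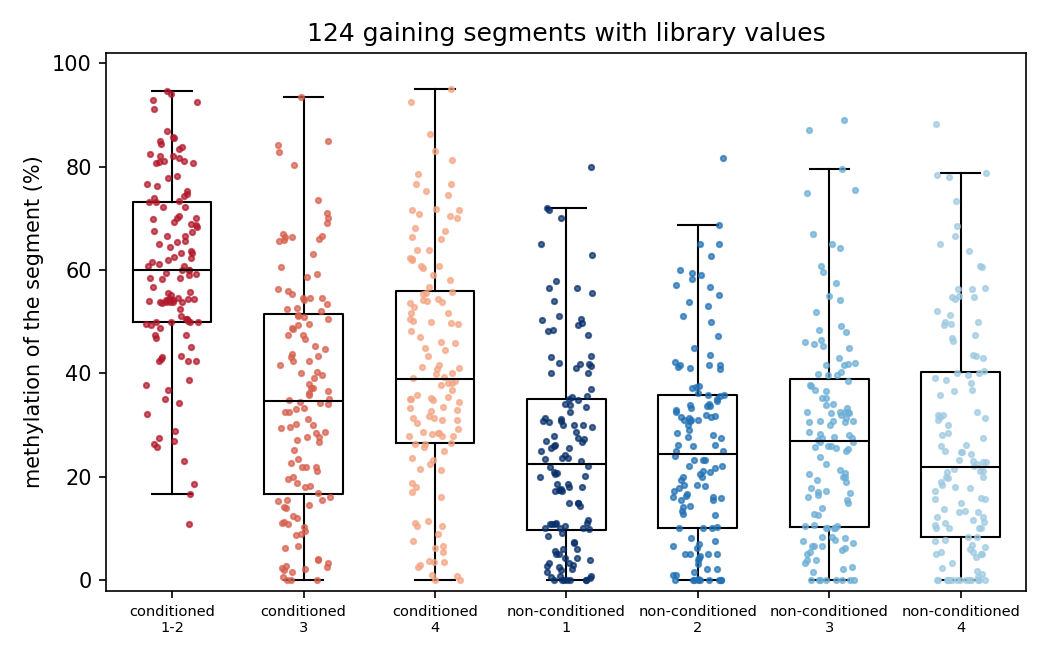
Methylation (y axis, %) of the 124 gaining segments with library values in each library, 1 point per segment. Boxes give the median and the middle 50%, and whiskers reach the farthest value within 1.5 box heights. Conditioned library 1-2 has a median of 60%, conditioned 3 and 4 have 34.7% and 38.8%, and the 4 non-conditioned libraries have 21.8% to 26.9%.

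Without conditioned library 1-2, the conditioned mean was higher in 115 of the 124 (92.7%), against 15.5% of all segments with library values. Conditioned libraries 3 and 4 were part of the mean that selected the segments, so this contrast is partly built in. In 39 of the 124 the conditioned mean was higher by 15 points or more. The median gain was 18.2 points with it and 11.8 points without it, and 9 segments turned lower. Left out in turn, every other library kept at least 93 of the 124 at 15 points. In all, 20 of the 124 kept a gain of 15 points whichever library was left out. Applied afresh to all 11570 segments, the same 15-point rule found 55 without conditioned library 1-2, 293 without conditioned library 3 and 193 without conditioned library 4, against 124 with all 7. Leaving out a non-conditioned library gave 116 to 145.

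In 33 of the 124 (26.6%), every conditioned library lay above every non-conditioned library, against 2.09% of all 11570 segments, a gap the selection itself builds in. In 55 segments 2 of the conditioned libraries did so, in 32 only 1 did and in 4 none did. Over all 11570 segments these counts were 813, 1649 and 8866. Conditioned library 1-2 was above every non-conditioned library in 111 segments (89.5%), conditioned library 4 in 79 (63.7%) and conditioned library 3 in 51 (41.1%). Over all segments with library values the shares ran in the same order, at 20.3%, 8.65% and 5.65%. The 33 became 38 without conditioned library 1-2 and 72 without conditioned library 3, the library that most often overlapped. Leaving out a library can only keep or raise this count, so neither rise is read as support. Of the 20 segments that kept 15 points with any library left out, 10 were among the 33.

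How many conditioned libraries shared the gain is given here by starting level. Among the 28 low starters, conditioned library 1-2 had a median of 51.3%, while conditioned libraries 3 and 4 had 6.45% and 10.5% and the non-conditioned libraries had 1.49% to 5.58%. In 14 of the 28 (50%), library 1-2 alone lay above every non-conditioned library, against 9.92% of all segments of that class. All 3 conditioned libraries did so in 4 of the 28 (14.3%), against 1.30% of the class, and 6 kept 15 points without library 1-2. Among the 85 middle starters the conditioned medians were 60%, 39.2% and 41%, and all 3 lay above the non-conditioned medians of 24.9% to 30.5%. Library 1-2 alone was above every non-conditioned library in 11 of these (12.9%), against 15.8% of the class. All 3 conditioned libraries were in 26 (30.6%), against 3.70% of the class, and 28 kept 15 points without library 1-2. The 11 high starters had conditioned medians of 84.5%, 69.1% and 78.5% against non-conditioned medians of 59.1% to 65.0%. In 3 of the 11 (27.3%) all 3 conditioned libraries lay above every non-conditioned library, against 4.80% of the class, and in another 3 library 1-2 alone did, against 17.1%.

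Non-conditioned libraries differed from one another more than over all segments, and over the 124 less than in the 218 losing segments, with a median standard deviation of 8.80 against 16.8 points. The median standard deviation among the 4 was 5.10 points in low starters, against 1.65 points over all segments that began under 10%. It was 9.38 points in middle starters, against 4.87 points over the class, and 21.7 points in losing segments of that class. In the high class it was 10.9 points in gaining, 10.4 points in losing and 4.81 points in all segments. Among the 3 conditioned libraries it was 26.0 points in low starters, against 1.30 points over all segments of that class. Selection on the group difference favours segments whose libraries vary, so the contrasts with all segments are partly built in and nothing is read from them.

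**Figure D4:**
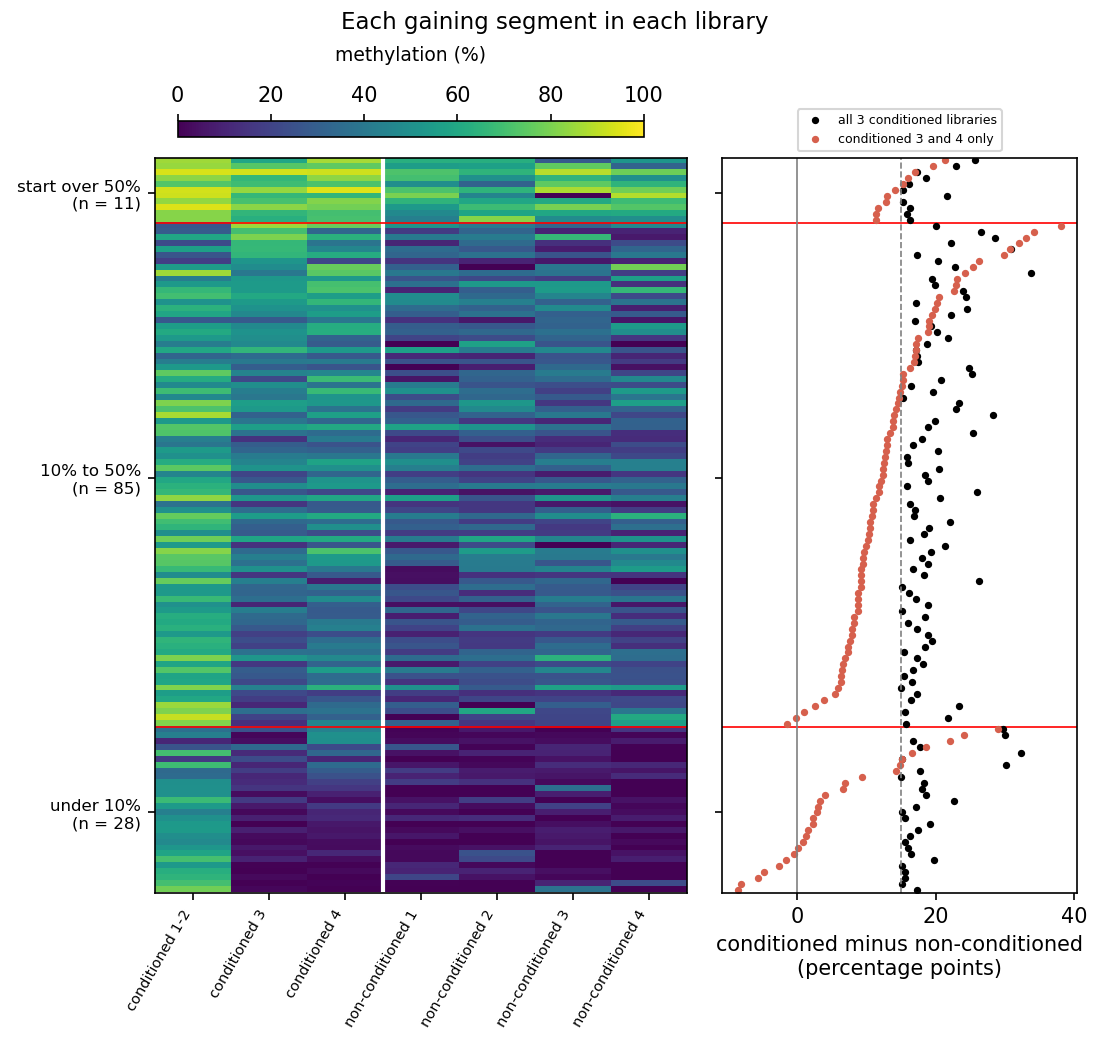
Left, methylation (colour, %) of the 124 gaining segments (rows) in each library (columns), in blocks by starting level; right, the gain in percentage points of the same rows with all 3 conditioned libraries (black) and with conditioned 3 and 4 only (red). Dashed and solid grey lines mark 15 points and 0. Many low starters are bright in conditioned library 1-2 alone, and 39 of the 124 red points lie at 15 points or beyond.

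Several segments showed the gain in all 3 conditioned libraries. At chr1:106084792-106084859, a low starter with 19 positions, conditioned libraries 1-2, 3 and 4 had 36.8%, 25.3% and 44.5%, against 0.877%, 6.58%, 0 and 15.8% in non-conditioned libraries 1 to 4. The groups did not overlap, and the gain of 29.7 points was 29.1 points without library 1-2. All 19 positions were higher in the conditioned mean. Its deposited q-value, 0.000444, was the lower of the 2 below 0.05 among segments with library values. The other of these 2, chr11:906760-906805, had 16.6%, 22.7% and 10.5% in the conditioned libraries, against 0, 0.909%, 5% and 0 in the non-conditioned ones. Here conditioned library 3 was the highest, and the gain of 15.1 points was the same without library 1-2.

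Other low starters without overlap depended more on library 1-2. The 10 positions of chr10:19518759-19518796 averaged 70%, 12% and 33.6% in conditioned libraries 1-2, 3 and 4, against 5%, 10%, 10% and 0 in the non-conditioned libraries. Its conditioned mean of 38.5% ± 29.3 (SD, n = 3) compared with 6.25% ± 4.79 (SD, n = 4) in the non-conditioned libraries, and the gain was 16.5 points without library 1-2 and 32.3 points with it. At chr1:194242100-194242204 the conditioned libraries had 34.2%, 18.3% and 29.3%, and the non-conditioned libraries had 17.7%, 7.56%, 7.27% and 5.53%. Conditioned library 3 and non-conditioned library 1 were less than 1 point apart there.

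Middle starters without overlap had gains of up to 30.8 points. At chr13:8504670-8504706 the conditioned libraries had 56.7%, 67.0% and 46.0%, against 35.0%, 28.0%, 7.50% and 32.5% in the non-conditioned libraries. Conditioned library 3 was the highest, and the gain was 30.8 points with or without library 1-2. By contrast chr10:16780864-16780947 had 72.3%, 37.9% and 34.8% in the conditioned libraries, against 21.9%, 30.7%, 25.9% and 13.1%, and gained 13.4 points without library 1-2 where all 3 gave 25.4. The third, chr1:112384835-112384942, had 75.3%, 44.7% and 45.9% in the conditioned libraries, against 24.2%, 33.0%, 41.7% and 21% in the non-conditioned libraries. Conditioned libraries 3 and 4 cleared the highest non-conditioned library by a few points there.

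Among gaining segments the conditioned libraries differed least in high starters, with a median standard deviation of 8.21 points, against 15.3 points in middle and 26.0 points in low starters. Over all segments with library values the order was reversed, with 5.96 points in the high, 4.39 points in the middle and 1.30 points in the low class. The high starters number only 11, and the order among gaining segments depends on the selection. At chr12:3233015-3233032 the conditioned libraries had 94.0%, 93.5% and 92.5%, which is 93.3% ± 0.759 (SD, n = 3), against 72.0%, 65.0%, 89.0% and 78.0% in the non-conditioned libraries. The gain of 17.3 points there was 17.0 without library 1-2. Of the 10 positions of this segment, only 6 were higher in the conditioned mean. At chr12:19287412-19287447 the conditioned mean was 72.5% ± 8.21 (SD, n = 3) against 56.6% ± 6.13 (SD, n = 4), and at chr14:2186916-2187131 it was 78.7% ± 6.78 (SD, n = 3) against 63.4% ± 4.27 (SD, n = 4). Their gains were 11.4 and 12.8 points without library 1-2.

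Of the 6 steepest gains with library values, 3 had overlapping groups. At chr12:16274249-16274330, with a gain of 33.8 points, conditioned library 3 had 40%, the same as non-conditioned library 1, while conditioned libraries 1-2 and 4 had 85.8% and 74.6%. At chr1:49676767-49676908 the conditioned libraries had 68.8%, 10.8% and 35.1%, against 6.11%, 2.08%, 12.9% and 11.1%. Conditioned library 3 lay within the non-conditioned range. At chr12:9204250-9204336 conditioned libraries 1-2 and 4 had 43.2% and 50%, whereas conditioned library 3 had 1.67% and the non-conditioned libraries had 1.28% to 2.22%. That segment was nearly unmethylated in 5 of the 7 libraries.

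The lowest and the highest gain left without library 1-2 were at 2 segments chosen after their values were seen. At chr11:1834534-1834643 conditioned library 1-2 had 78.1% while conditioned libraries 3 and 4 had 1.91% and 0, against 0, 0, 37.5% and 0 in the non-conditioned libraries. Without library 1-2 the difference was -8.42 points. At chr1:125374955-125374974 the order was turned round, with 27.0% in conditioned library 1-2, 85% and 76.7% in conditioned libraries 3 and 4, and 51.2%, 41.2%, 32.6% and 46.3% in the non-conditioned libraries. There the gain was 20.1 points with all 3 and 38.0 points without library 1-2.

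On chromosome 11 a stretch of 611 bp at chr11:19695260-19695870 held 4 gaining segments, and in each of them every conditioned library lay above every non-conditioned library. Over their 45 positions, conditioned libraries 1-2, 3 and 4 had 57.5%, 43.3% and 47.6%, against 28.5%, 32.6%, 34.1% and 27.9% in non-conditioned libraries 1 to 4. The conditioned mean was 49.5% ± 7.31 (SD, n = 3) and the non-conditioned mean 30.8% ± 3.05 (SD, n = 4). The gain of 18.7 points was 14.6 points without library 1-2. All 4 deposited q-values were 1.

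A second stretch on the same chromosome, chr11:10430769-10431312, held 3 gaining segments with 34 positions. Its conditioned libraries had 72.6%, 69.6% and 66.7%, against 54.1%, 44.0%, 65.1% and 39.6% in the non-conditioned libraries. The groups did not overlap over the stretch, although they did in each of the 3 segments taken singly, and non-conditioned library 3 came within 2 points of conditioned library 4. Its gain was 18.9 points, or 17.5 points without library 1-2. Of the 7 groups of gaining segments within 1 kb that had library values, 3 did not overlap. The third was chr14:2401357-2401972, with 49.0%, 39.7% and 36.7% in conditioned libraries against 28.4%, 20.3%, 17.8% and 25.2% in non-conditioned ones over 23 positions, and 15.2 points without library 1-2. Selection itself raises the count of 3 in 7, and the share over groups of all segments was not computed, so nothing is read from it.

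With all 3 conditioned libraries, gains ran across most CpG positions. The mean of these same positions selected the segments, so high shares of positions and strands are partly built in. Shares over the positions of all segments were not computed, and the counts are a description. Of the 1479 positions in the 124 segments, 1377 (93.1%) were higher in the conditioned mean, 878 (59.4%) were higher by 15 points or more and 88 (5.95%) were lower. Without library 1-2, 1084 (73.3%) were higher, 551 (37.3%) by 15 points or more, and 310 (20.96%) were lower. Every position was higher in 50 of the 124 segments (18 without library 1-2), and in 17 some position was lower by 15 points or more. Where both strands could be read from at least 3 cytosines each, in 85 segments, the conditioned mean was higher on both in 83 and by 15 points on both in 27. These counts were 64 and 12 without library 1-2. The strands differed by a median of 10.5 points. In 27 of the 124 no pair of cytosines on opposite strands could be assigned among the segment's positions.

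Values of exactly 0 and exactly 100% differed between libraries inside these segments. Conditioned libraries 1-2, 3 and 4 listed 8.38%, 18.5% and 15.9% of the 1479 positions at 0, against 42.6% to 46.6% in the non-conditioned libraries. At 100%, conditioned library 1-2 listed 24.9% of positions, and the other 6 libraries listed 5.68% to 7.78%. Library 1-2 also had the fewest values of 0 over all common positions, 27.8%, against 43.0% and 40.7% in conditioned libraries 3 and 4 and 35.7% to 37.4% in the non-conditioned libraries. At 100% it was not the highest over all common positions, with 3.59% at 100% against 2.5% and 2.79% in conditioned libraries 3 and 4 and 4.43% to 5.18% in the non-conditioned libraries. Selection for low non-conditioned and higher conditioned means partly builds in the contrast in values of 0 inside the segments. The read depth behind these values is unknown. The number of positions measured did differ, with 724260, 862443 and 834475 in conditioned libraries 1-2, 3 and 4, against 652465 to 694825 in the non-conditioned libraries. Whether this bears on the values was not tested.

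The flanks held no gain of that size, and their small difference depended on library 1-2. Within 500 bp on either side, outside any gaining segment, 116 of the 124 had at least 5 positions measured in all 7 libraries. Their median flank difference was 0.277 points, against 18.1 points inside the same segments. The inside difference was selected to be at least 15 points and the flank difference was not, so the selection builds in this contrast. In none did the flank gain 15 points, but only 4 of 11200 flanks of all segments with library values did, so nothing is read from that. The flank was higher in 62 and lower in 54. Without library 1-2 the median flank difference was -2.20 points, with 22 higher and 94 lower. Over the flanks of all segments with library values the median difference was -1.25 points and 14.9% were higher, or -2.16 points and 5.75% without library 1-2. The flank value of gaining segments was 0.337 points within 100 bp and -0.223 points within 1000 bp, or -2.95 and -2.12 points without library 1-2.

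Conditioned library 1-2 was raised in the flanks too. Its median flank methylation was 37.6%, against 21.5% and 25.8% in conditioned libraries 3 and 4 and 23.5% to 28.9% in the non-conditioned libraries. Averaged over segments, the flanks had 37.5% in conditioned library 1-2, 26.8% in conditioned library 3 and 29.8% in conditioned library 4, while the non-conditioned libraries had 30.3% to 31.7%. Within 100 bp of the centre, library 1-2 stood above all its own flanking bins, with 51.7% and 51.5% in the 2 bins and at most 41.1% elsewhere. In these bins conditioned library 3 had 31.1% and 29.7%, and conditioned library 4 had 34.3% and 35.2%. At 350 bp before the centre these 2 libraries had 31.6% and 35.2%, and at 350 bp after it 24.1% and 27.02%. The 2 bins held 1610 and 1512 positions, against 1479 inside all 124 segments, so they took in positions outside the segments. Averaged inside the segments with flanks, conditioned libraries 3 and 4 had 35.5% and 40.9%, above their flank means. Inside, the non-conditioned libraries had 24.98% to 27.4%, below their flank means. Segments were selected for conditioned means above non-conditioned means in these same libraries, so both directions are partly built in and nothing is read from them. The non-conditioned libraries had 25.2% to 29.2% at the centre, 33.8% to 37.1% at 350 bp before it and 25.8% to 27.5% at 350 bp after it.

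**Figure D5:**
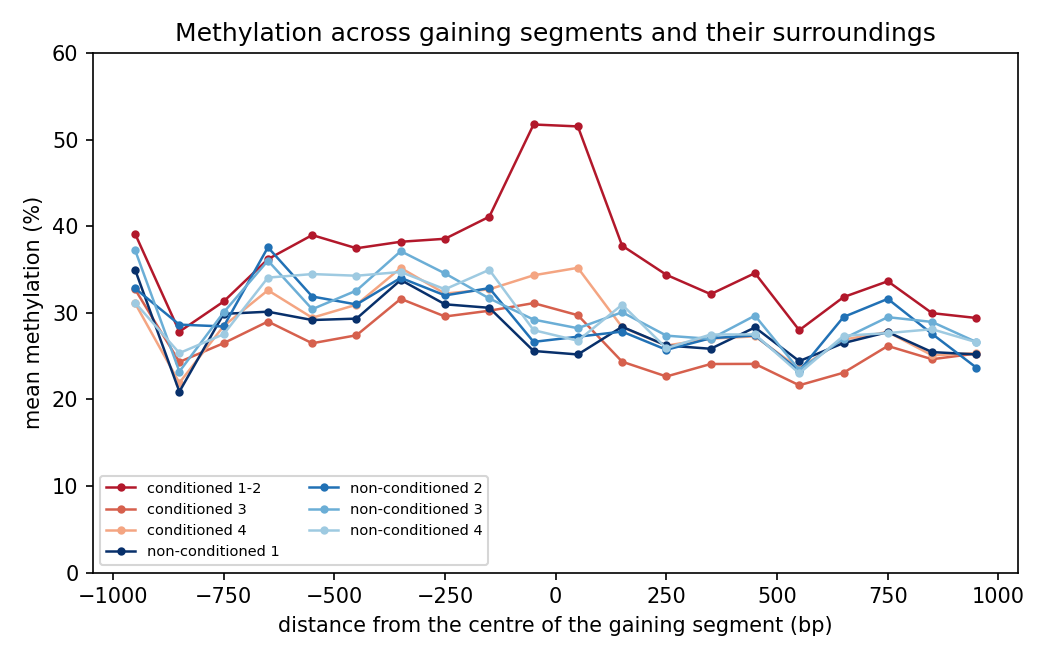
Mean methylation (y axis, %) in 100-bp bins by distance from the centre of the gaining segments (x axis, bp), per library, with segments weighted equally and other gaining segments left out. Up to 117 segments enter a bin near the centre and as few as 30 at the edges. Conditioned library 1-2 peaks at 51.7% beside the centre, and the 7 libraries otherwise run between 20.9% and 41.1%.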

How the data were processed

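Per the labels' protocols, RRBS libraries were made with a Zymo-Seq kit from 15 to 30 ng of DNA and sequenced on an Illumina NextSeq. The submitters' processing notes name Trimmomatic, Bismark 0.22.3, Bowtie, HOMER and the build galGal5. For the segment table, the tool is not given in the sources used here. The deposited site table holds percent methylation per cytosine position and library; it has 1048575 positions and ends on chromosome 14. The deposited segment table holds each group's mean percent methylation, p-values and q-values. Depth is unknown. Averaging the positions present in all 7 libraries gave the authors' group means within 0.01 points in 11570 of 11570 segments, with starts counted from 0; coordinates are printed counted from 1.

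Differences are conditioned minus non-conditioned; the deposited difference column runs the other way. No test was run, since the contrast selected the segments; segments were described beside all segments and beside those losing 15 points. Near segments had gaps of up to 1 kb. Consecutive positions in runs of even number were read as strand pairs (82.3% of positions). Segments named were the 10 largest gains, the 3 largest per starting class without overlap between the groups' libraries, the 3 largest with overlap, those with a deposited q-value under 0.05, the 3 nearest the threshold on each side, and the largest groups of near segments; exceptions are stated. Members and rules were chosen with earlier results of these data known. Scripts ran under Python 3.11.15 with pandas 2.3.3, numpy 2.4.6, scipy 1.17.1 and matplotlib 3.10.9, and segment means were tested on simulated data. Gene names and sequences were not used, for lack of a genome of the same build.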

Additional observations from a re-analysis of the deposited data

Results flagged for a closer look

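At chr1:194242100-194242204, non-conditioned library 1 had 17.7% and stood far from the other 3, which had 7.56%, 7.27% and 5.53%. Its gap to the nearest of them was 0.833 of the whole range of the 4 values, above Dixon's critical value for 4 samples. The conditioned libraries there had 34.2%, 18.3% and 29.3%. It was the 1 that stood out among 17 sets of non-conditioned values examined, where chance flags about 1 in 20. Over all 124 gaining segments with library values, 15 (12.1%) were past the same value.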

How the results depend on the processing

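Counts moved with the rule: 1628 segments gained 10 points, 205 gained 20 points, 60 gained 15 points over at least 15 positions, and 69 gained at least 2 on the scale log2((fraction + 0.05)/(1 - fraction + 0.05)), 64 of which also gained 15 points. On assembled chromosomes alone there were 524. With class bounds of 20% and 80%, 38.9%, 61.1% and 0% of the 584 began low, in the middle and high. Gaps of 10 kb and 100 kb gave 134 and 274 near segments, which a wider gap must raise. Without each library in turn, 38 to 72 of the 124 did not overlap, a count that leaving out a library cannot lower. Under the same omissions 39 to 113 of the 124 kept 15 points, and the median gain ran from 11.8 to 24.3 points. Of all segments with library values, 55 to 293 gained 15 points. That last count, and those that follow for pairs and for subtracted means, were chosen after seeing the data. The median flank difference without conditioned library 1-2, -2.20 points, was also added then, as were the values without it for positions, strands and neighbours. Cytosine pairs alone gave 65 at 15 points, of the 97 segments with an assigned pair. Subtracting each library's mean over common positions gave 124. The conditioned means are lower on average, so this raises every difference and none of the 124 could drop out. Of all segments with library values, 149 gained 15 points after it. The median gain stayed between 15.95 and 19.3 points in the 4 alternatives that kept all 7 libraries. A q-value limit of 0.01 left 8 of 11. For the shared numbers 3 and 4, a replicate block (differences within a number) left 38 at 15 points; deviations of same-numbered libraries correlated at 0.0127 and 0.0492 over all segments, so the numbers were not taken to pair the libraries. Read depth and segments of 10 positions limit precision. No test was run, so no adjusted p changes.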

Other observations

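Sorting segments by the midpoint of both group means, a choice made after seeing the data, treats gains and losses alike, since the starting level favours gains at low starts. By midpoint, 20 segments gained and 62 lost 15 points under 10%, 412 gained and 729 lost between 10% and 50%, and 152 gained and 232 lost above 50%. Gaining segments numbered 0.323, 0.565 and 0.655 for each losing segment in these classes.

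Losing segments did not lean on conditioned library 1-2 in the same way. Over the 218 losing segments with library values, the median differences from the non-conditioned mean were -18.2 points in conditioned library 1-2, -20.7 points in conditioned library 3 and -18.7 points in conditioned library 4. The median standard deviation was 4.86 points among the conditioned and 16.8 points among the non-conditioned libraries there, against 16.01 and 8.80 points in the gaining segments. In 77 of the 218 (35.3%) every conditioned library lay below every non-conditioned library, against 17.1% of all 11570 segments. Selection on the loss itself builds in this gap. Over all 1023 losing segments the conditioned mean had a median of 12.0%, against 46.2% over the 584 gaining ones. The spreads were therefore compared at different methylation levels, and no test was run.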
